A study of Branchiostoma lanceolatum with 6 samples.

Results

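The genes described here are 100 members of a set called pan-endodermal genes, chosen from the 27073 genes of an amphioxus embryo cell atlas by their own levels. Unique molecular identifiers (UMIs, tags that let each captured mRNA molecule be counted once) were pooled per cell type and scaled to 10,000 UMIs of all genes. A gene was eligible if it had at least 50 UMIs in both endodermal types of the atlas and if neither of its endodermal levels was over 2 times the other, which left 1859 genes. The score of a gene is the lower of its endodermal levels over its highest level among the other types, with the classes epidermal/neural 1 and neural-like 1 not counted. The 100 highest scores were taken, after *Plac8-like*, *Otx*, *Gsc*, *Pax1/9*, *Irxc* and *Soxf* had been set aside. The levels in endoderm against the other types therefore chose the members, and they are given as a description with no test.

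The atlas was made from wild-type *Branchiostoma lanceolatum* embryos at 21 hours post-fertilization, a neurula stage. Embryos were dissociated and pooled, and living single cells were sorted into 40 plates and profiled by MARS-seq, a plate method that counts UMIs from the poly(A) end of mRNA. The table holds 14586 cells in 176 metacells, which are groups of cells with like profiles, and 17 annotated cell types. The endodermal types are endoderm, with 842 cells in metacells 1, 2, 4 to 9 and 11 to 13, and the presumptive endostyle and club-shaped gland (endostyle/csg), with 223 cells in metacells 3 and 10. The cells cannot be placed in either of the 2 labelled samples, so all of them were taken as 1 sample with no biological replicate and nothing was tested. Intervals in brackets are exact 95% intervals, Poisson for levels and Clopper-Pearson for shares of cells, and cover counting error only.

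The endoderm of a chordate embryo lines the primitive gut. In amphioxus its anterior part forms the pharynx with the endostyle, a mucus-secreting groove that is related to the vertebrate thyroid, and the club-shaped gland, a secretory organ of the larva. Transcription factors of the Foxa and Soxf families are well known for roles in vertebrate endoderm, and pharyngeal endoderm expresses Pax1/9 genes across deuterostomes. Many of the members below are known only by a gene ID.

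The label of the cells was read beside a list of 6 endodermal markers, *Foxaa* and 5 of the genes set aside by the rule. The study assigned its cell types from known marker genes, so this is no independent check. Their summed level was 39.5 UMIs per 10,000 in endoderm and 54.1 in endostyle/csg, against 11.3 in notochord, the highest of the other types. Markers of other tissues were low but not at 0 in endoderm, with 3.36 for notochord markers, 2.36 for muscle, 1.56 for somites, 1.42 for neural cells, 0.994 for tailbud and 10.7 for epidermis, whose own types reached 305 and 339. Each of these lists had at least some UMIs for every gene in endoderm. Cells had a median of 1936 UMIs in endoderm, 1833 in endostyle/csg and 1246 in posterior epidermis, while the class putative neuro-endo had the shallowest cells, with a median of 416.

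The scores fell quickly along the list. The highest was 19.3 and the median over members was 1.52, against a median of 0.655 over all eligible genes. A score of at least 5 was reached by 10 members, of at least 3 by 19 and of at least 2 by 31. Over all 1859 eligible genes, 1.83% had a score of at least 2 and 12.4% a score over 1, and since the rule ranks by this score these shares describe the list and support nothing. For 64 members the intervals of both endodermal levels lay above the interval of the highest other type, and for the other 36 they overlapped it. Over all eligible genes 3.93% had intervals apart in this way, and this too restates the rule. The last members were BLAG03001612, BLAG18000804, BLAG03102283, BLAG04002070 and *PRPF31* (BLAG03001579), with scores of 1.215, 1.214, 1.213, 1.206 and 1.205. Just outside were *CDK3* (BLAG15000641, in the orthogroup of *CDK1*), *RAN* (BLAG01001341), BLAG08000789, *UBE2C* (BLAG07000052) and BLAG13000311, with scores of 1.202, 1.202, 1.202, 1.201 and 1.195. No gap in score separated members from the genes after them, so the end of the list at 100 is a count and not a boundary in the data.

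**Figure D1:**
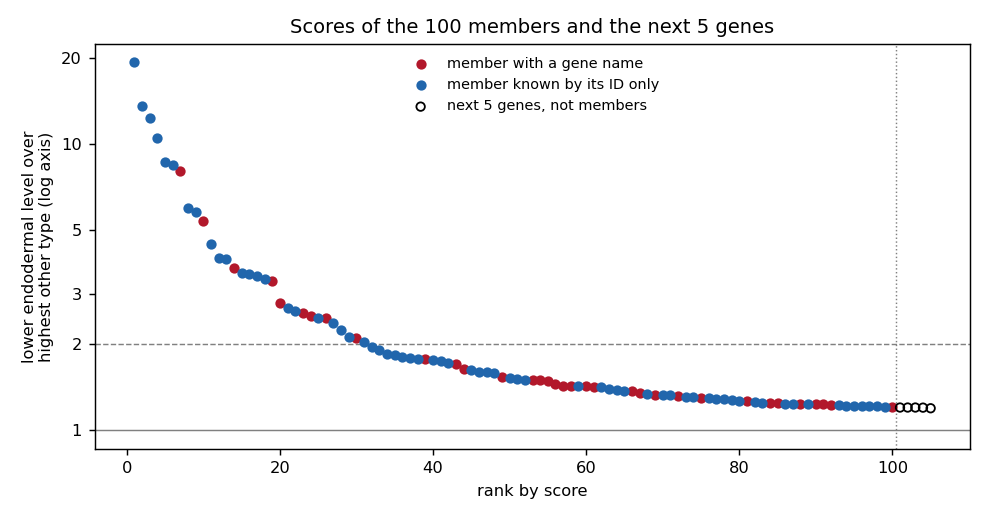
Score of each of the 100 members and of the 5 genes ranked next, on a log axis, against rank. Red points are members with a gene name in the study, blue points members known by ID only, and open points the 5 next genes. The dashed line marks a score of 2, which 31 members reach, and the curve runs on across rank 100 without a step.

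The set was therefore read in 2 parts, a division made after the scores were seen: the 20 members with the highest scores and the 80 members of ranks 21 to 100. Except for *ELOVL4*, which had 43.4% of its UMIs in endodermal cells, each of the 20 was counted mostly in such cells. Over the 20, a median of 80.1% of the UMIs of a gene came from the endodermal types, against 33.1% for ranks 21 to 100. These types hold 8.79% of all UMIs in the table. Ranking by the score makes such a difference between the parts. Summed over the 20 genes, the level was 84.8 UMIs per 10,000 (83.6 to 86.01) in endoderm and 91.3 (88.8 to 93.9) in endostyle/csg. It was 12.02 (9.67 to 14.8) in putative neuro-endo, 4.93 (4.48 to 5.42) in notochord, 3.06 (2.84 to 3.29) in non-muscular somites and 2.85 (2.43 to 3.33) in tailbud. The remaining types that the rule counts lay between 1.08 in epidermal/neural 2 and 2.40 in neural-like 2.

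**Figure D2:**
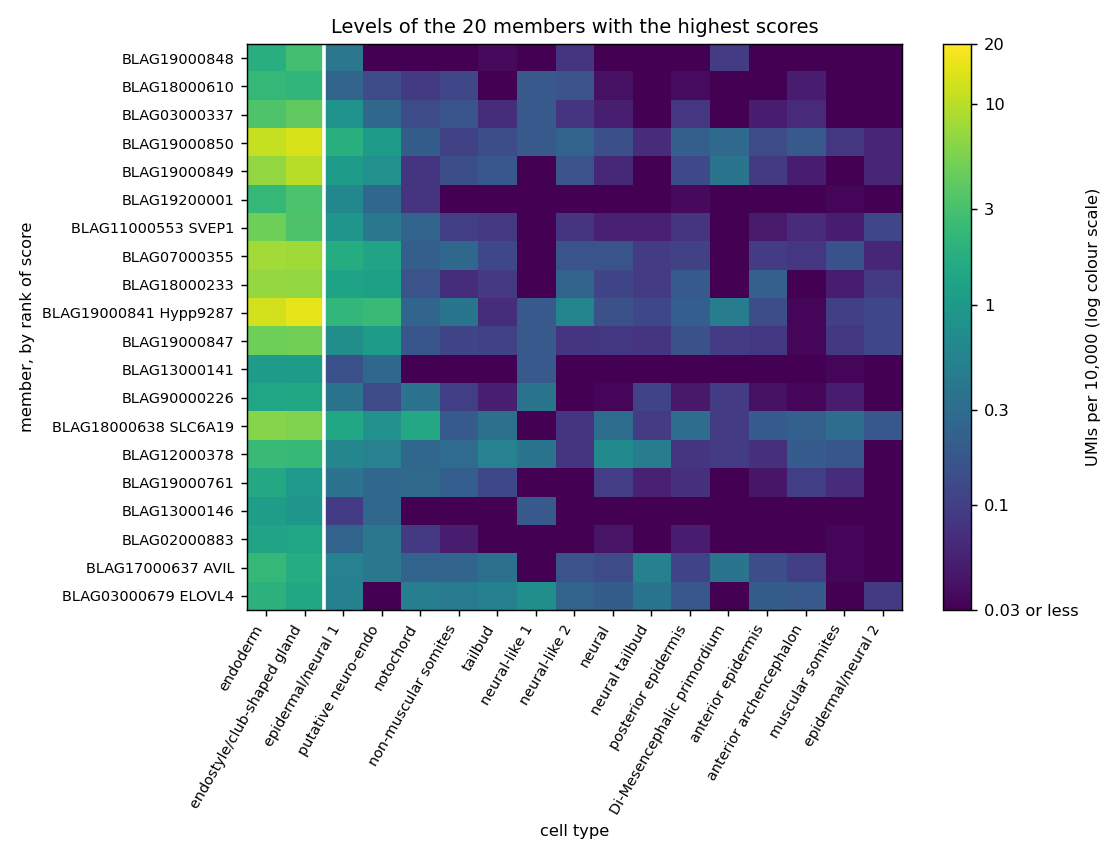
Level of each of the 20 members with the highest scores (rows, by rank) in each of the 17 cell types (columns), in UMIs per 10,000 on a log colour scale. The white line parts the endodermal types from the others, which are ordered by the summed level of the 20 genes. Both columns on the left are bright in every row, and the next brightest are epidermal/neural 1, with a summed level of 16.2, and putative neuro-endo, with 12.02.

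The member at rank 1, BLAG19000848, had 400 UMIs in endoderm and 155 in endostyle/csg, or 1.77 UMIs per 10,000 (1.60 to 1.96) and 2.87 (2.43 to 3.35). Its highest other type was the Di-Mesencephalic primordium, where the level of 0.0918 rests on 1 UMI. BLAG18000610 was at 2.26 (2.07 to 2.47) in endoderm and 2.18 (1.81 to 2.61) in endostyle/csg, against 0.160 in neural-like 2 from 2 UMIs. BLAG03000337 was at 3.32 (3.08 to 3.56) and 4.07 (3.55 to 4.64), against 0.267 in putative neuro-endo, again from 2 UMIs. The highest scores thus divide by very few UMIs, and their size is less certain than the endodermal levels themselves.

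Close gene IDs recur among these members. *Hypp9287* (BLAG19000841), BLAG19000847, BLAG19000848, BLAG19000849 and BLAG19000850 took ranks 10, 11, 1, 5 and 4. *Hypp9287*, a hypothetical protein by its name, was at 12.9 UMIs per 10,000 (12.5 to 13.4) in endoderm and 15.6 (14.6 to 16.7) in endostyle/csg, against 2.40 (1.42 to 3.80) in putative neuro-endo. BLAG19000850 was at 11.2 (10.8 to 11.7) and 13.4 (12.4 to 14.4), against 1.07 (0.461 to 2.11) in the same class. BLAG19000849 was at 6.95 (6.61 to 7.30) and 9.85 (9.03 to 10.7), against 0.801, and BLAG19000847 at 4.79 (4.51 to 5.09) and 4.97 (4.40 to 5.61), against 1.07. For all 4 genes both endodermal intervals lay above that of the next type. Between these IDs, BLAG19000843 had 135 UMIs in endoderm and 32 in endostyle/csg, under the minimum of the rule, at levels of 0.599 and 0.592, against 0.160 in neural-like 2. The other IDs between were low, with BLAG19000842 at 0.102 in endoderm, BLAG19000844 at 0.0178 and BLAG19000845 at 0.0133. BLAG19000846 was at 0.422 in endoderm, against 0.245 in tailbud. BLAG19000854 and BLAG19000855, a few numbers above, were not higher in endoderm, with 1.003 and 0.843 there, against 1.33 in neural cells and 2.11 in the Di-Mesencephalic primordium.

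BLAG13000141 and BLAG13000146 were another such pair, at 1.09 and 1.11 UMIs per 10,000 in endoderm and 1.07 and 0.924 in endostyle/csg, each against 0.267 in putative neuro-endo from 2 UMIs. Of the 20 highest scores, 7 had another of the 20 within 10 ID numbers, and of all 100 members 13 had another member that near. Among the next 100 ranks the count was 0, and among the 100 ranks after those it was 12. What the numbering of the IDs stands for is not described in the sources used here. If such genes are near-identical copies, reads may have been shared between them in the counting, so the level of each alone is uncertain.

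The members with a gene name in the study number 34, of which 5 are among the 20 highest scores, and the other 66 are known by ID only. The other members among the 20 highest scores were ID-only genes of the same kind. BLAG07000355 was at 8.06 UMIs per 10,000 (7.70 to 8.44) in endoderm and 8.01 (7.27 to 8.80) in endostyle/csg, against 1.34 (0.640 to 2.46) in putative neuro-endo. BLAG18000233 was at 7.13 (6.78 to 7.48) and 6.95 (6.27 to 7.69), against 1.20 in the same class, and BLAG19200001 at 2.25 and 3.18, against 0.267 there from 2 UMIs. BLAG02000883 was at 1.35 (1.21 to 1.51) and 1.41 (1.11 to 1.76), against 0.401 there from 3 UMIs, with overlapping intervals. Another 3 had a deeper next type. BLAG12000378 was at 2.44 and 2.33, against 0.654 in neural cells, BLAG90000226 at 1.41 and 1.46, against 0.353 in notochord, and BLAG19000761 at 1.53 and 0.998, against 0.285 in notochord. In ranks 21 to 100, 51 members were known by ID only, with scores between 1.206 and 2.67, and 27 of them were among the 64 with intervals apart from the next type. Their levels in endoderm ran between 0.670 for BLAG16000568 and 21.8 for BLAG15000525.

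Gene names follow the study's figures or its orthology to vertebrate genes, and a name is not proof of a shared role. Surface, matrix and actin-binding proteins were among the named members. *SVEP1* (BLAG11000553) is named for a large extracellular matrix protein of vertebrates, although its assigned orthogroup holds C-type lectins and collectins and not *SVEP1*. It was at 4.82 UMIs per 10,000 (4.54 to 5.11) in endoderm and 3.24 (2.77 to 3.75) in endostyle/csg, against 0.401 (0.0826 to 1.17) in putative neuro-endo. *NCAM2* (BLAG01002480), an immunoglobulin-type adhesion molecule, was at 5.47 (5.17 to 5.79) and 6.45 (5.79 to 7.17), against 2.22 (1.85 to 2.64) in tailbud. *AVIL* (BLAG17000637), of the villin family of actin-binding proteins, was at 2.26 (2.07 to 2.47) and 1.70 (1.37 to 2.09), against 0.510 in neural tailbud. *RDX* (BLAG01000337), whose family links actin to the plasma membrane, was at 4.18 and 3.42, against 2.27 in neural tailbud. *SVEP1* and *AVIL* thus stood further above the next type than *NCAM2* and *RDX*, with scores of 8.075 and 3.335 against 2.462 and 1.504.

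Transporters of the SLC6 family, which in mammals carry amino acids and transmitters, were represented by 2 members. *SLC6A19* (BLAG18000638), named for a neutral amino acid transporter of the mammalian gut and kidney but placed in an orthogroup of other SLC6 transporters, was at 6.16 UMIs per 10,000 (5.84 to 6.49) in endoderm and 5.66 (5.04 to 6.33) in endostyle/csg, against 1.54 (1.29 to 1.82) in notochord. *Slc6a7* (BLAG06000979), named for a proline transporter, was at 8.89 (8.51 to 9.29) and 8.25 (7.50 to 9.05), against 4.83 (4.38 to 5.31), also in notochord. *ELOVL4* (BLAG03000679), a fatty acid elongase, was at 1.95 (1.77 to 2.14) and 1.46 (1.16 to 1.82), against 0.525 in tailbud. All 3 were higher in endoderm than in endostyle/csg in their point values, and only for *ELOVL4* and *SLC6A19* did the rank fall in the first 20.

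Among the named members were 3 enzymes of nucleotide synthesis, put side by side after their values were seen. *PAICS* (BLAG07001436), an enzyme of purine synthesis, was at 2.03 UMIs per 10,000 (1.85 to 2.22) in endoderm and 2.31 (1.92 to 2.75) in endostyle/csg, against 0.787 (0.578 to 1.05) in anterior archencephalon. *ATIC* (BLAG11000184), which catalyses the last steps of that pathway, was at 2.001 (1.82 to 2.19) and 2.09 (1.72 to 2.51), against 0.796 (0.687 to 0.918) in non-muscular somites. *PRPS1* (BLAG06000137), which makes the activated ribose that the pathway starts from, was at 2.48 (2.28 to 2.69) and 3.27 (2.81 to 3.79), against 1.40 (1.251 to 1.55) in non-muscular somites. For all 3 the endodermal intervals lay above that of the next type. *DPYS* (BLAG16000805), of pyrimidine breakdown, was at 2.56 and 2.61, against 1.79 in tailbud, and *IDH2* (BLAG02000539), a mitochondrial isocitrate dehydrogenase, at 6.13 and 6.58, against 4.85 in anterior archencephalon.

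Genes of DNA replication and division were members with scores under 2. *CCND2* (BLAG18000349), a D-type cyclin, was at 6.99 UMIs per 10,000 (6.65 to 7.34) in endoderm and 10.6 (9.78 to 11.5) in endostyle/csg, against 4.795 (4.24 to 5.40) in tailbud. *MCM7* (BLAG14101207), a subunit of the replicative helicase, was at 2.698 and 3.20, against 1.75, and *PCLAF* (BLAG02001516), a partner of the replication clamp, at 2.29 and 3.40, against 1.66, both with tailbud next. *LIG1* (BLAG09000527), a DNA ligase, *TPX2* (BLAG07001236), a spindle assembly factor, and *RBBP4* (BLAG01000085), a histone chaperone, had scores of 1.246, 1.22 and 1.43, and for *LIG1* and *TPX2* the intervals overlapped those of the next type. Tailbud, which holds the growing posterior end of the embryo, was the next highest type for 5 of these 6 genes, and putative neuro-endo for *LIG1*. The share of all eligible genes with tailbud next was not counted.

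Named members that bind RNA or act in making ribosomes had ranks between 44 and 100. *DAZAP1* (BLAG02001381), an RNA-binding protein and the member with most UMIs, was at 22.2 UMIs per 10,000 (21.6 to 22.8) in endoderm and 21.9 (20.7 to 23.2) in endostyle/csg, against 16.5 (15.6 to 17.3) in notochord. *SNU13* (BLAG09001097) and *FBL* (BLAG04000847), both proteins of the box C/D particles that modify ribosomal RNA, had scores of 1.24 and 1.23, with muscular somites next. *PRPF31*, at rank 100, is in the orthogroup of *NOP56*, another protein of those particles, and was at 13.3 (12.8 to 13.7) and 12.4 (11.4 to 13.3), against 10.3 (9.45 to 11.1) in muscular somites. *PTBP1* (BLAG13000104) and *LUC7L2* (BLAG09001050), which act in splicing, *DDX24* (BLAG02000897), an RNA helicase, *ABT1* (BLAG02001734), a nucleolar protein, and *PPM1G* (BLAG02000412), a protein phosphatase, had scores of 1.63, 1.30, 1.41, 1.32 and 1.249. The endodermal levels of these genes were above the next type by small factors, and for *LUC7L2*, *DDX24*, *ABT1* and *PPM1G* the intervals overlapped.

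Of the other named members, *BAMBI* (BLAG10000991), a pseudoreceptor that dampens TGF-beta signalling in vertebrates, was at 3.20 UMIs per 10,000 (2.97 to 3.45) in endoderm and 4.57 (4.01 to 5.17) in endostyle/csg, against 1.52 (0.914 to 2.37) in neural-like 2. *TNNI1* (BLAG08000678), named for a troponin I of vertebrate muscle, was at 1.14 (1.01 to 1.29) and 1.35 (1.06 to 1.70), against 0.801 (0.294 to 1.74) in putative neuro-endo from 6 UMIs. Muscular somites were at 0.0341. *TP63* (BLAG14001153), a p53-family factor known from vertebrate epidermis, was at 0.941 (0.818 to 1.08) and 1.02 (0.766 to 1.32), against 0.698 (0.501 to 0.947) in muscular somites, with overlapping intervals. *CANX* (BLAG06000588), a chaperone of the endoplasmic reticulum, *REEP5* (BLAG02000162), which shapes that compartment, and *GALNT2* (BLAG04001293), which starts mucin-type O-glycosylation, had scores of 1.23, 1.49 and 1.501.

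Gene lists compiled from the study's figures and supplementary tables put these counts in place. The study drew those genes from these same cells, and the lists were compiled with earlier results of these data known. They are therefore not independent evidence of a direction, and their shares are not read as an enrichment. Over all eligible genes 5.38% were members and 12.4% had a score over 1. Of 15 metabolic enzymes and transporters 8 were members, and these were the 8 with a score over 1, 53.3% of the list, with a list median of 1.26 beside 0.655 over all eligible genes. Of 15 cell division genes 5 were members and 10 had a score over 1, with a median of 1.19. Of 47 ribosomal protein genes none was a member and 1 had a score over 1, with a median of 0.860, and for all 47 muscular somites were the highest other type. Of 11 genes of translocation and N-glycosylation in the endoplasmic reticulum none was a member or had a score over 1, and of 6 chaperones and folding enzymes only *CANX* did. Of 25 endodermal transcription factors 13 were eligible, 4 had a score over 1 and *TP63* alone was a member. Of the 18 with at least 50 UMIs in both types, the other 5 were over 2 times higher in endostyle/csg than in endoderm, beside 1.37% of all 1903 such genes. None was over 2 times higher in endoderm, beside 0.946%. This minimum favours such an outcome, since endostyle/csg has a pool of 540883 UMIs against 2253547 in endoderm. Factors low in endostyle/csg therefore drop out. Over all 25 factors, 7 were over 2 times higher in endostyle/csg and 2 in endoderm. The study also used *Foxe* and *Nkx2.5*, among the 5, to assign endostyle cells.

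Summed over all 100 members, the level was 347 UMIs per 10,000 (345 to 350) in endoderm and 372 (367 to 378) in endostyle/csg. The next types were non-muscular somites at 141 (140 to 143), tailbud at 135.5 (132.5 to 138.5) and notochord at 129 (127 to 132), and the lowest were anterior epidermis at 47.4 and posterior epidermis at 46.6. Tailbud was the next highest type for 20 members, putative neuro-endo for 18, notochord for 16, non-muscular somites for 10 and muscular somites for 9, and 1 had an epidermal type, posterior epidermis. Of the 20 highest scores, 12 had putative neuro-endo next, whose pool of 74872 UMIs is small. How often each type is next over all eligible genes was not counted, so these counts are not read as a trait of the members. The level of the 80 members of ranks 21 to 100 was 263 in endoderm and 281 in endostyle/csg, against 138 in non-muscular somites. Between endodermal types the levels were close by the rule, with a median of 1.08 for endostyle/csg over endoderm. The endostyle/csg interval lay above that of endoderm for 17 members, beside 12.5% of all eligible genes, and below it for 4, beside 8.45%.

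**Figure D3:**
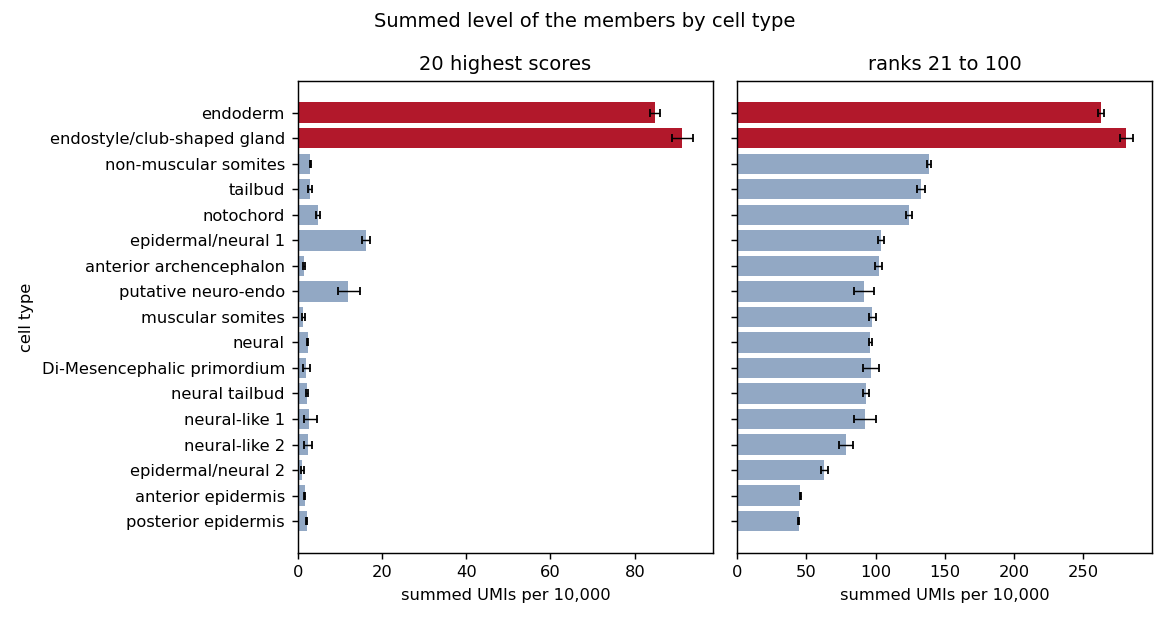
Summed UMIs per 10,000 of the 20 members with the highest scores (left) and of the 80 members of ranks 21 to 100 (right) in each cell type, with exact Poisson 95% intervals. Red bars are the endodermal types. The left panel falls off from 91.3 and 84.8 to at most 16.2 in the other types, while in the right panel the other types reach up to 138 beside 263 in endoderm.

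The word pan-endodermal was then checked within the endoderm, since the rule pools all cells of a type. The 11 metacells of endoderm and the 2 of endostyle/csg were read in 5 groups: metacell 1; 5 and 6; 2, 4, 11 and 13; 7, 8, 9 and 12; and 3 and 10. Metacell 1 held most *Sfrp1/2/5*, at 19.8 UMIs per 10,000, and *Pax3/7*, at 7.06, metacells 5 and 6 had the most *Six3/6*, at 2.84, the third group the most *Wnt8*, at 2.535, the fourth the most *Nkx2.2*, at 2.42, and metacells 3 and 10 the most *Foxe*, at 9.26. The 20 highest-scoring members were at 17.6 (16.3 to 19.1) in metacell 1 and 33.2 (30.5 to 36.1) in metacells 5 and 6. They were at 105.2 (103 to 107) in metacells 2, 4, 11 and 13, at 97.7 (94.7 to 100.7) in metacells 7, 8, 9 and 12 and at 91.3 (88.8 to 93.9) in metacells 3 and 10. Metacell 5 alone was at 13.02 (9.50 to 17.4), from 45 UMIs, and metacell 6 at 38.5 (35.2 to 42.0). The members with the highest scores were thus lower in metacells 1, 5 and 6 than in the other endodermal metacells. The interval of metacell 1 overlapped that of epidermal/neural 1, which was at 16.2 (15.3 to 17.1), and at 6.53 without its 10 highest cells. The interval of metacell 1 lay above that of putative neuro-endo, the highest type the rule counts, at 12.02 (9.67 to 14.8). The interval of metacell 5 overlapped it.

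**Figure D4:**
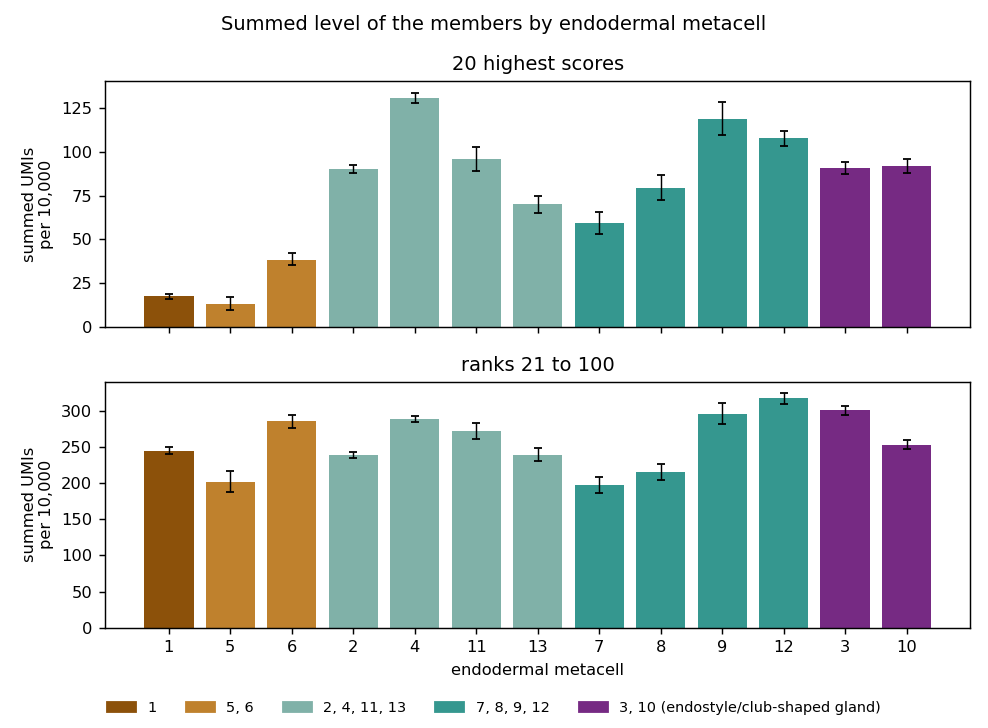
Summed UMIs per 10,000 of the 20 members with the highest scores (top) and of the 80 members of ranks 21 to 100 (bottom) in each of the 13 endodermal metacells, with exact Poisson 95% intervals. Colours mark the 5 groups of metacells. In the top panel metacells 1 and 5 are at 17.6 and 13.02 and metacell 4 is at 131, while the bottom panel runs only between 197 and 317.

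The endodermal markers differed among themselves in these metacells. *Pax1/9* was at 0.753 UMIs per 10,000 in metacells 1, 5 and 6 against 2.99 in the other 10, and *Plac8-like* at 11.3 against 21.4. *Otx* was at 8.34 against 7.70, *Gsc* at 7.14 against 5.02, *Soxf* at 2.38 against 2.85 and *Foxaa* (BLAG04001273) at 4.98 against 4.08. The 6 markers together summed to 32.9 UMIs per 10,000 in metacell 1, 39.7 in metacell 5 and 39.0 in metacell 6, within the range of 26.35 to 46.3 over the other 8 endoderm metacells. Epidermal markers summed to 8.63 in metacell 1, 14.5 in metacell 5 and 15.7 in metacell 6, against 6.05 to 28.4 over those 8, and somite markers to 6.24, 5.50 and 1.45, against at most 1.16. The part of these values in the low level of the 20 genes was not tested. Cells of metacell 1 had a median of 3447 UMIs, cells of metacell 5 a median of 960 and cells of metacell 9, which was high, a median of 749. Thinned to 500 UMIs, 44.4% (34.0 to 55.3) of 90 cells of metacell 1 and 53.1% (42.7 to 63.4) of 96 cells of metacells 5 and 6 held a UMI of the 20 genes. The share was 92.7% (89.2 to 95.4) of 302 cells of metacells 2, 4, 11 and 13, and 10.1% in posterior epidermis. No shallower cell was left out of metacells 1, 2, 4, 11 and 13, and 6 were left out of metacells 5 and 6.

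Gene by gene, 19 of the 20 were at 0.5 times or less in metacells 1, 5 and 6 pooled, against the other 10 endodermal metacells. This pooling was not among the comparisons planned in advance, so the counts under it are a description. Among all 1903 genes with at least 50 UMIs in both types, 4.57% were that low, and 2.1% were at 2 times or more. The median ratio was 0.230 over the 20, 0.839 over ranks 21 to 100, of which 6 were that low, and 1.01 over the 1903 genes. Of the 20, 7 have another of the 20 within 10 ID numbers. If reads were shared between them, the count of 19 and the sums over the 20 rest on fewer separate genes. BLAG18000233 was lowest, at 0.425 UMIs per 10,000 in metacells 1, 5 and 6, against 8.61 in the other 10, and *SVEP1* was at 0.560 against 5.41. *Hypp9287* was at 2.78 against 15.9 and *SLC6A19* at 1.60 against 7.07. The exception was BLAG19000761, with 0.681 in metacell 1 and between 0.565 and 2.21 in the other 12 metacells, at a ratio of 0.603. With metacell 6 alone in place of the 3, 14 of the 20 were at 0.5 times or less, and with metacell 1 alone 20 were. Metacell 1 against all other endodermal metacells also gave 20, beside 5.89% of the 1903 genes. No share over all genes was taken for metacell 6 alone.

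Beyond the 20, 6 members had the same shape, at 0.5 times or less. BLAG04001435 at rank 22, BLAG07101631 at rank 65 and BLAG11000930 at rank 94 were lowest. Their levels were 0.232, 0.116 and 0.232 UMIs per 10,000 in metacells 1, 5 and 6, against 1.83, 1.19 and 1.125 in the others. BLAG13000829, BLAG06000892 and BLAG04002070 had ratios of 0.483, 0.438 and 0.444. The only members with the opposite shape, at 2 times or more, were BLAG12000159 and BLAG15000677. BLAG12000159 was at 5.53 in metacell 1, 6.66 in metacell 5, 5.88 in metacell 6 and 4.17 in metacell 3, at 2.65 in metacell 7, and at 1.26 or less in the others. BLAG15000677 was at 2.58, 2.03 and 3.21 in metacells 1, 5 and 6 and at most 1.63 elsewhere. The pooled level of the rule does not separate these shapes, and genes of either kind are members.

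**Figure D5:**
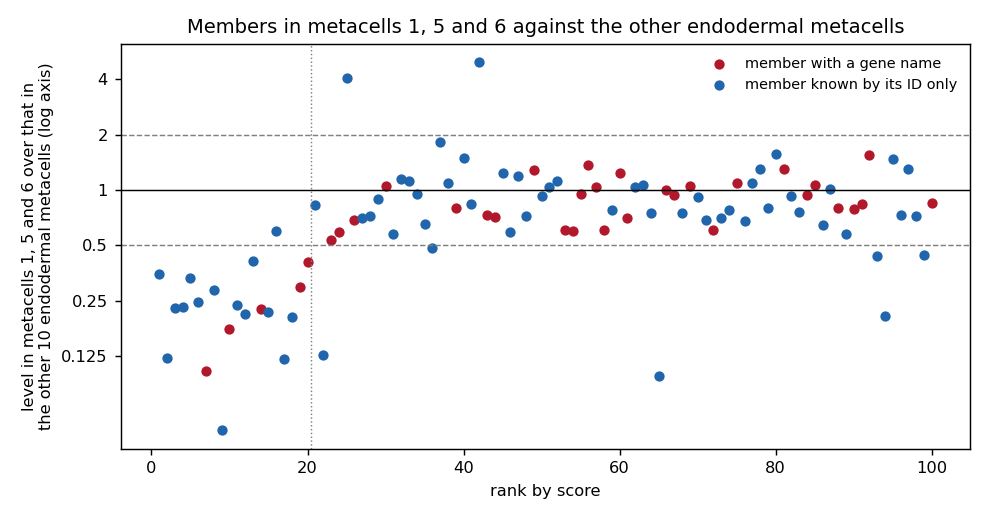
Level of each member in metacells 1, 5 and 6 pooled over its level in the other 10 endodermal metacells (log axis), against its rank by score. Dashed lines mark ratios of 0.5 and 2. To the left of the dotted line, 19 of the 20 highest-scoring members lie below 0.5, while the 80 members to its right have a median of 0.839 and 2 of them lie above 2.

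Evenness over the 13 metacells was rare. The highest metacell was at most 3 times the lowest for 16 of the 100 members, beside 29.5% of all 1903 genes with at least 50 UMIs in both types, with levels under 3 UMIs set to 3 UMIs. None of the 20 highest scores was among the 16. Members had a median of 574 UMIs in both types together and all 1903 genes a median of 517. The smallest ratios were 1.80 for BLAG07001410, 1.89 for *DAZAP1* and 1.90 for *PCLAF*. *DAZAP1* ran between 16.4 UMIs per 10,000 in metacell 7 and 30.9 in metacell 12. The largest were 51.2 for BLAG12000159, 51.1 for BLAG18000233 and 34.8 for *SVEP1*. BLAG18000233 was at 0.255 in metacell 1, at 0.289 in metacell 5 from 1 UMI, and at 13.05 in metacell 4. *SVEP1* had 9 UMIs in metacell 1 and was highest in metacell 4, at 8.89. Metacell 5, which has the fewest UMIs, was lowest for 40 members, and metacell 4 was highest for 22. These counts were not made over all 1903 genes, so they are not read as a trait of the members. With metacells 1, 5 and 6 left out, 27 members were even, 6 of them among the 20, beside 39.1% of the 1903 genes.

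Single cells were read next. The rule chose the members by pooled levels in these same cells, so a higher count in endodermal cells restates it and is no test. After each cell was thinned to 500 UMIs, with shallower cells left out (70 of endoderm, 1 of endostyle/csg and 833 of other types), the median was 17 member UMIs in endoderm and 18 in endostyle/csg. It was 7 in non-muscular somites, 6 in notochord and tailbud and 2 in each epidermal type. A level of 8 UMIs, the 5th percentile of endodermal cells, was reached by 7.73% (7.27 to 8.21) of the 12688 cells of other types. Thinned to 1000 UMIs, with the same percentile at 18 UMIs, 3.13% (2.79 to 3.49) of 9947 cells reached it. At 500 UMIs the share was 44.0% (40.2 to 47.9) in non-muscular somites, 37.5% (31.7 to 43.6) in tailbud and 35.8% (31.0 to 40.9) in notochord, against 0.850% in posterior epidermis. At the 25th percentile, 13 UMIs, 0.867% of the cells of other types remained.

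The 20 highest scores alone were read after the same thinning, and these shares too restate the rule. A UMI of the 20 was found in 81.7% of endoderm and 95.5% of endostyle/csg cells, and in 10.1% of posterior epidermal cells, taken as background. Without thinning the shares were 89.7%, 100% and 23.5%. Anterior archencephalon, at 7.79%, and muscular somites, at 6.15%, did not exceed that background. Notochord was at 19.4%, and in its 409 cells 1 cell held 75 of the 433 UMIs of the 20 genes. Putative neuro-endo was at 24.6% (14.5 to 37.3) of the 61 of its 166 cells that were deep enough, and 10 cells held 52 of its 90 UMIs. Its level of the 20 genes was 12.02 with those 10 cells and 5.45 without them.

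Epidermal/neural 1 and neural-like 1, which the rule leaves out, were read separately. In epidermal/neural 1 the 20 genes summed to 16.2 UMIs per 10,000 (15.3 to 17.1), and 12 of them were higher there than in any type the rule counts. The count over all 100 members was 19, and none was made over all eligible genes. No member was above the lower of its endodermal levels in this class. Its 108 cells were the deepest of the atlas, with a median of 6758 UMIs, and 10 of them held 771 of the 1189 UMIs of the 20 genes. Without those 10 the level was 6.53. Endodermal markers summed to 27.2 (23.96 to 30.7) in the 10 cells and 4.90 (4.38 to 5.48) in the other 98, and epidermal markers to 96.2 (90.1 to 103) and 154 (151 to 157). Each of the 10 held at least 8 endodermal and 32 epidermal marker UMIs, while the other 98 had a median of 0.5 endodermal ones. Whether these wells held more than 1 cell was not tested. In neural-like 1, with 30 cells, 2 members were above both endodermal levels and 4 above the lower one. With both classes counted among the other types, 92 of the 100 members would still have been chosen.

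The levels were last read by plate, which describes their spread and is no independent check, since the rule used the same cells. The 20 genes summed to between 42.1 and 126 UMIs per 10,000 (median 83.5) in endodermal cells and to between 1.20 and 6.42 (median 2.36) in all other cells, most of them epidermal, over the 40 plates. All 100 members summed to between 258 and 417 in endodermal cells, against 57.4 to 91.1 in all other cells. Plates are technical batches of 1 sample, so variation between embryos or spawnings cannot be read from this spread.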

How the data were processed

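Per the methods of the study, the authors mapped reads with STAR 2.7.3, assigned them to exons, filtered UMIs for errors and grouped cells with Metacell 0.37, from gene features of the same cells. The authors deposited raw UMI counts per gene and cell, and the metacell and type of each cell. A further deposited table holds the authors' own fold changes per metacell and was not used. Doublets were limited by the sorter's gates alone, and 286 cells deeper than 4 times the median of their type stayed in. Levels are summed UMI counts per 10,000, without scaling by gene length. Sums over members count each gene by its UMIs, and levels of different genes were not tested against each other. In ratios over metacells, counts under 3 UMIs were set to 3. Cells were thinned without replacement (seed 1).

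The members and gene lists were chosen with earlier results of these data known. Genes named are the members that the study names, the 20 highest scores, the 5 members before and the 5 genes after the end of the list, the 3 largest and 3 smallest ratios over metacells, and the listed genes. BLAG19000842, BLAG19000843, BLAG19000844, BLAG19000845, BLAG19000846, BLAG19000854, BLAG19000855, BLAG04001435, BLAG07101631, BLAG15000525, BLAG15000677 and BLAG16000568 were chosen after their values were seen. So were BLAG06000892, BLAG11000930 and BLAG13000829. ATAC-seq samples were not used here. Python 3.11.15, numpy 2.4.6, scipy 1.17.1, pandas 2.3.3 and matplotlib 3.10.9 were used, and the computations were tested on simulated data.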

Additional observations from a re-analysis of the deposited data

How the results depend on the processing

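No paired analysis was possible because all cells were taken as 1 sample and no test was made. Of the 100 members, 50 were chosen again with a minimum of 20 UMIs in both types, since more genes were then eligible, and 56 with a minimum of 100 UMIs, since fewer were. All 20 of the highest scores were among the 100 with the lower minimum and 13 with the higher one. Other settings kept 75 to 96 members, the fewest with the mean of the level of each cell, and leaving out each of the 40 plates in turn kept 88 to 98. The mean of the level of each cell gave 337 in endoderm, 359 in endostyle/csg and 150 in the highest other type. Without *DAZAP1*, the member with most UMIs, these sums were 325, 350 and 126.0. Leaving out each plate gave 343 to 350, 368 to 377 and 141 to 142. At most 2 times between metacells held for 3 members, beside 4.15% of genes. With metacells 1, 5 and 6 left out, a setting chosen after seeing the data, 27 were within 3 times. The alternative with the deposited fold changes was not run, since those values are the authors' own comparisons. The count of 19 of 20 genes low in metacells 1, 5 and 6, itself not planned, was 19 without each plate in turn. It was 20, 19 and 14 with metacells 1, 5 and 6 each alone, settings also chosen after seeing the data. For metacells 5 and 6 alone no share over all genes was taken, and metacell 5 has the fewest UMIs, so these counts are a description. Cells of other types at endodermal levels were 3.13% when thinned to 1000 UMIs and 0.867% at the 25th percentile. A level resting on 1 or 2 UMIs limits the highest scores, and the absence of replicates limits every comparison.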

Other observations

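The 6 genes set aside by the rule behaved differently from each other. *Plac8-like* (BLAG07000527) was at 18.4 UMIs per 10,000 in endoderm and 24.3 in endostyle/csg and ranked 4 among the 1859 eligible genes. *Soxf* (BLAG02000861) ranked 23, with 2.84 and 2.44, and *Otx* (BLAG04000893) ranked 31, with 7.41 and 9.48. *Gsc* (BLAG04000892) ranked 297, with 5.001 and 7.12. *Pax1/9* (BLAG04001279) and *Irxc* (BLAG07000983) were not eligible, since they were over 2 times higher in endostyle/csg. *Pax1/9* was at 5.42 in endostyle/csg, against 1.895 in endoderm, and *Irxc* at 1.53 in endostyle/csg, against 0.719 in endoderm.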
